A study of Mus musculus with 30 samples.

Results

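The genes described here are immediate early genes measured in mouse liver, the Klf and Dusp families and some further genes taken by symbol. They are 41 of the 8996 genes with a symbol on the array. They were chosen by symbol, as genes whose symbol starts with Fos, Jun, Egr1 to Egr4, Atf3, Ier2, Ier3, Ier5, Klf, Dusp, Btg1 to Btg3, Mycl, Plk2, Plk3, Crem, Irf2bp or Trp53inp, or is one of Maff, Mafg, Mafk, Gadd45a, Gadd45b, Gadd45g and Myc. The AP-1 members found were Fosl2, Jun and Jund, and the only Egr member was Egr1. The Maf members were Maff, Mafg and Mafk, the Gadd45 members Gadd45b and Gadd45g, and the Btg members Btg1, Btg1c, Btg2 and Btg3. The Klf members were Klf1, Klf2, Klf3, Klf4, Klf6, Klf7, Klf9, Klf10, Klf12, Klf13 and Klf15. The Dusp members were Dusp1, Dusp3, Dusp6, Dusp12, Dusp16, Dusp22, Dusp23 and Dusp28. The rest were Crem, Plk3, Ier5l, Ier3ip1, Irf2bp1, Irf2bp2, Irf2bpl, Trp53inp1 and Trp53inp2. Ier3ip1, a protein that interacts with the product of Ier3, and the little-studied Btg1c entered by the letters of their symbols. The Irf2bp and Trp53inp genes were also taken by symbol, and are not classed here as immediate early genes. Other classical immediate early genes, such as Fos, Fosb, Junb, Atf3, Ier2, Ier3, Myc and Gadd45a, were not analysed here.

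The study measured liver RNA of 30 mice on one-colour Agilent arrays, 1 array and 1 animal each, so replicates are separate animals per the labels. In the first experiment male and female mice were gavaged once a day for 30 days with a root flour decoction of chicory genotype G35 or of genotype G12, each mouse taking the equivalent of 10 mg of flour daily, and their controls (control 1) took water. In the other experiment the mice took 6.9 mg of inulin a day, the storage fructan of chicory root, and their controls (control 2) again took water. A gavage was 500 µl, standard chow was free, and the mice were 8 weeks old when it began. Sex and gavage give 10 groups with 3 mice in each. The mouse strain, and the interval between the last gavage and the taking of the liver, are not given in the sources used here.

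Immediate early genes are transcribed within minutes of a growth factor, hormone or stress signal and need no new protein for it. MAP kinases acting through serum response factor, and cyclic AMP acting through CREB, are the textbook routes to their promoters. AP-1 and EGR proteins are transcription factors, Klf proteins are zinc finger factors that act on many metabolic and cell cycle genes, and Dusp proteins remove phosphate from MAP kinases and other substrates. In liver many of these genes respond to feeding, fasting, glucocorticoids, time of day and regeneration, and most of their transcripts are short-lived.

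The upstream sequences of 4 members are shown because these genes are described below, and because the routes named above act on promoter elements. They are the 250 bases before the annotated start, from RefSeq with build GRCm38.p6, written 5′ to 3′ along the gene's strand, and capitals mark the letters TGACGTCA, the palindromic cyclic AMP response element. Plk3 lies at chr4:117133964-117134213 and Irf2bp2 at chr8:126593987-126594236, both on the minus strand, and neither window held that element. The shown window of Maff, from 1 of its 3 annotated starts, lies at chr15:79347270-79347519 on the plus strand, and that of Dusp1 at chr17:26508473-26508722 on the minus strand. The element starts 29 bases before the shown start of Maff and 143 bases before that of Dusp1. The windows of the other Maff starts did not hold it.
Plk3: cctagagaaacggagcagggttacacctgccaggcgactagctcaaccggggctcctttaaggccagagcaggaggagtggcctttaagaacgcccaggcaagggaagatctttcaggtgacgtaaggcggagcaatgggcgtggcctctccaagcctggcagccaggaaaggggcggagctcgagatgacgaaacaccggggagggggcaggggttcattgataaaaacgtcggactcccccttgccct
Irf2bp2: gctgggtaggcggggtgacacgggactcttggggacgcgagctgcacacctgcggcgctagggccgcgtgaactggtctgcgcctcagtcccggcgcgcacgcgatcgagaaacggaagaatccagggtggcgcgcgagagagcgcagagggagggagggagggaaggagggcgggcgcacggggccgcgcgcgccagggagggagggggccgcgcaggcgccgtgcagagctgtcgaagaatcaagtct
Maff: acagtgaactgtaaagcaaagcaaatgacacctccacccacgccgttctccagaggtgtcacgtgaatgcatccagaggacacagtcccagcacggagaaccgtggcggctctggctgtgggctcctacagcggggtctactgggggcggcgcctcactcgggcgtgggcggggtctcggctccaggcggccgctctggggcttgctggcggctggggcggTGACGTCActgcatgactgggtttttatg
Dusp1: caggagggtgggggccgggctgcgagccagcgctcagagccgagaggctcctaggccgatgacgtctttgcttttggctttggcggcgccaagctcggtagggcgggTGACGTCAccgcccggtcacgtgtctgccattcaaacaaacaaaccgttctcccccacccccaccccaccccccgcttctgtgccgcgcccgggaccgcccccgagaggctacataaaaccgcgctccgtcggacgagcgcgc

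RefSeq windows were found for 36 of the 41 members, 39 windows in all. TGACGTCA stood in 5 of them (Btg2, Dusp1, Irf2bpl, Maff and Trp53inp2), against 1.55% of all 32851 windows. GCGGGGGCG, a sequence bound by EGR proteins, stood on either strand in 8 windows (Dusp22, Dusp23, Fosl2, Klf2, Klf3, Klf4, Klf15 and Mafk), against 2.57% of all windows. TGACTCA, the AP-1 sequence, and the serum response element of Fos stood in 0 member windows on either strand, against 4.46% and 0.0609% of all windows. In the 4 windows shown only the cyclic AMP element was found, so no matches overlap. A match is a run of letters and not a measured site.

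The values are fluorescence intensities, quantile-normalized over the 30 arrays and given on the log2 scale, so that a difference of 1 is a doubling. The arrays' median intensity before normalization ran from 141 to 511. None of the 41 members reached the scanner maximum on any array, and 9 were among the dimmest 25% of genes (Btg1c, Btg2, Dusp23, Fosl2, Ier5l, Irf2bp1, Klf1, Klf4 and Mafk). The SD within groups of 3 was 0.27 for the median member and 0.23 for the median gene, and among members it ran from 0.13 in Klf1 to 0.78 in Gadd45g. Both a layout and a defect of the arrays touch the members. Among males, 6 of 6 water control arrays and 0 of 9 gavage arrays lay at position 4 of their slide, so position and gavage cannot be told apart in males. The array of female G12 replicate 2 had a patch of low signal, described below, that held the probes of Dusp16, Egr1 and Klf9.

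Differences were tested with limma over all genes, once with the 10 groups alone and once with the slide also in the model, and a gene is called at a Benjamini-Hochberg adjusted p under 0.05. In every comparison of a gavage with its water control, 0 of 41 members were called without slide. With slide, 3 members were called in males given G35 (7.32% of them, against 0.356% of all genes, and against 0.0111% of all genes without slide). All 3, Plk3, Irf2bp2 and Trp53inp1, were higher than in control 1, where 0.289% of all genes were called higher and 0.0667% lower. With slide, 0 of the AP-1, Egr, Klf and Dusp members were called there. The members were chosen with earlier results of these data known, so counts among them are not an independent test of the set. The 41 genes were higher in G35 than in control 1 males in 32 cases, with a median difference of 0.32, whereas 49.2% of all genes were higher and their median was -0.00. Leaving out each of the 6 arrays in turn left 29 to 35 members higher. The male G35 group had the highest mean of the 10 groups for 13 members, against 7.38% of all genes, and male control 1 had the lowest for 9 members, against 10.1%.

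**Figure D1:**
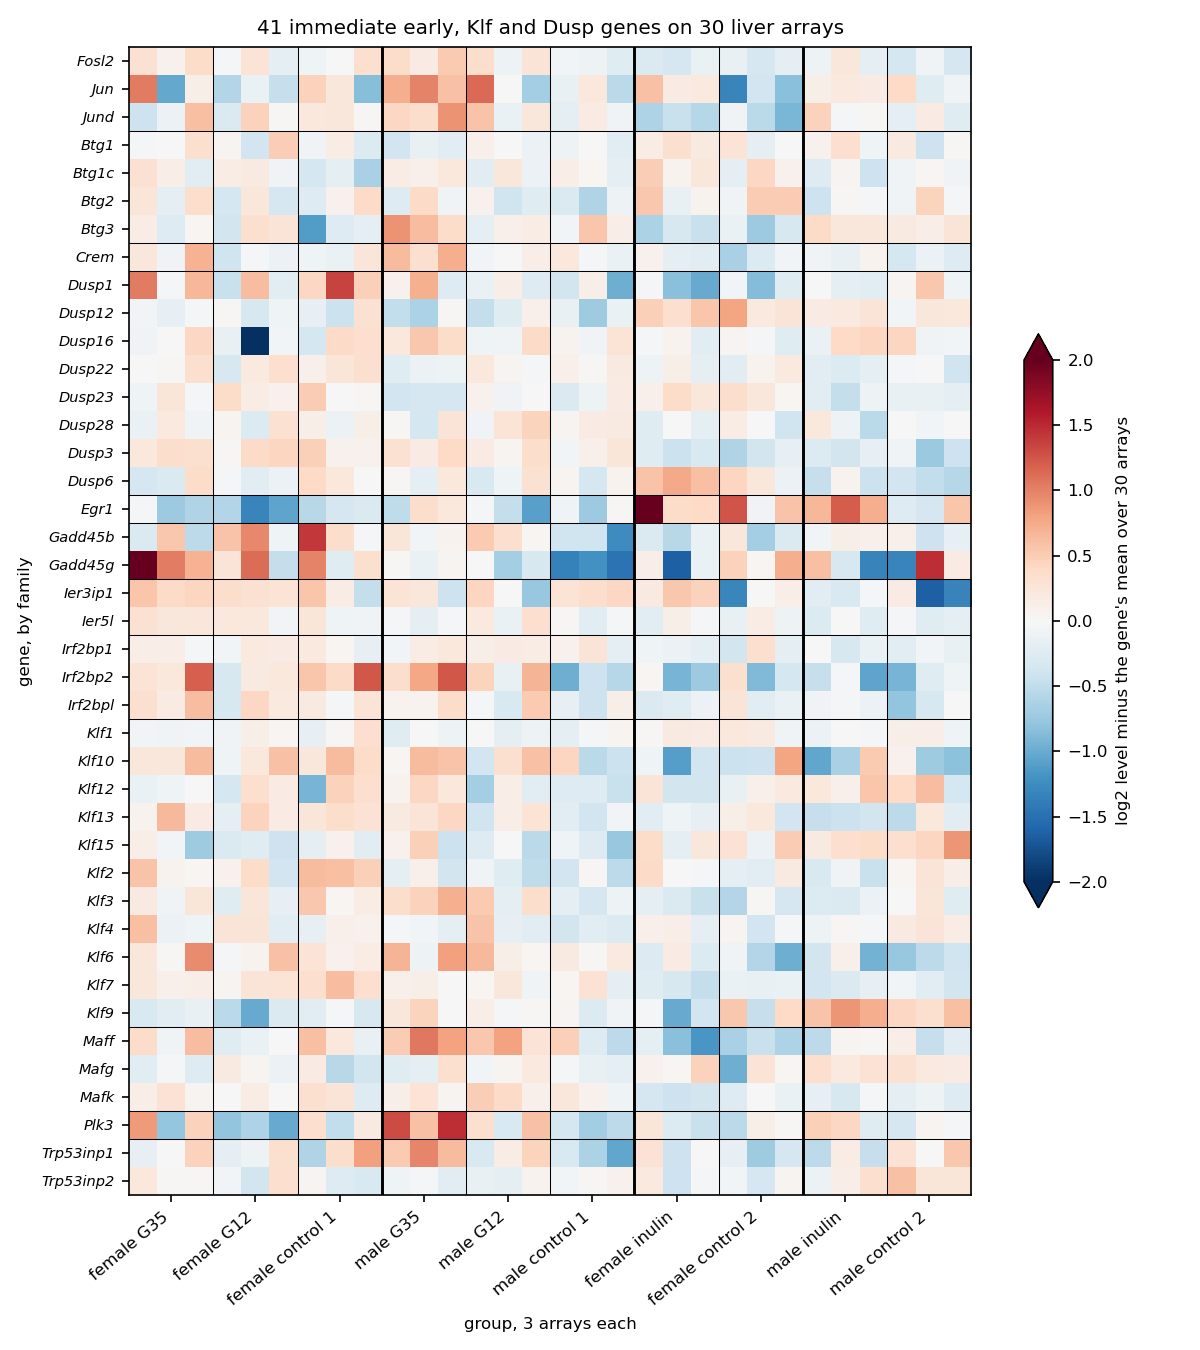
Levels of the 41 genes on the 30 arrays, each as its log2 level minus that gene's mean over all arrays (colour scale from -2 to 2), with families separated by horizontal lines and groups of 3 mice by vertical lines. Plk3, Irf2bp2, Trp53inp1, Jun and Maff are red in male G35, Gadd45g is blue in male control 1, Egr1 is red on all 6 inulin arrays, and the dark blue cell is Dusp16 on the array of female G12 replicate 2.

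Plk3 encodes a polo-like kinase induced by serum and by cellular stress. Its log2 level was 10.76, 10.04 and 10.94 in male G35 livers, 9.77, 9.16 and 10.05 in male G12 livers and 9.10, 8.75 and 8.94 in male control 1 livers. All 3 male G35 arrays lay above all 3 control arrays. The mean was 3.13-fold higher in G35 males (log2 difference 1.65 ± 0.33, standard error from limma), with an adjusted p of 0.0594 without slide and 0.0469 with slide. On the 3 slides that held an array of each group the difference ran from 1.28 to 2.00. In females the level was 10.30, 8.68 and 9.92 in female G35 livers, 8.67, 8.85 and 8.44 in female G12 livers and 9.79, 8.96 and 9.64 in female control 1 livers, and the G35 and control 1 arrays overlapped (0.17 ± 0.33, adjusted p 0.959). It was 9.70, 9.18 and 9.01 in female inulin livers against 8.92, 9.57 and 9.47 in female control 2 livers, and 9.93, 9.87 and 9.22 in male inulin livers against 9.12, 9.51 and 9.43 in male control 2 livers.

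Irf2bp2 encodes a corepressor that binds interferon regulatory factor 2. Its level was 10.19, 10.61 and 11.08 in male G35 livers, 10.28, 9.70 and 10.51 in male G12 livers and 8.87, 9.43 and 9.27 in male control 1 livers. Again the G35 arrays did not overlap the control arrays, and the mean was 2.71-fold higher in G35 males (1.44 ± 0.35). The adjusted p was 0.182 without slide and 0.00206 with slide, and the difference ran from 1.18 to 1.82 over the 3 slides. A second probe of the gene was higher by 0.82, with an adjusted p over all probes of 0.0827 with slide. In females its level was 10.12, 10.05 and 11.02 in female G35 livers, 9.52, 10.01 and 10.04 in female G12 livers and 10.40, 10.22 and 11.07 in female control 1 livers. The female G35 and control 1 livers overlapped (-0.17 ± 0.35, adjusted p 0.962). Levels in the inulin experiment were 9.88, 8.90 and 9.11 in female inulin livers against 10.16, 8.95 and 9.49 in female control 2 livers, and 9.38, 9.81 and 8.79 in male inulin livers against 8.91, 9.59 and 9.75 in male control 2 livers.

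Trp53inp1 encodes a stress protein induced by p53 that takes part in autophagy and apoptosis. It stood at 10.27, 10.72 and 10.38 in male G35 livers, 9.44, 9.91 and 10.19 in male G12 livers and 9.44, 9.12 and 8.70 in male control 1 livers. The G35 and control arrays did not overlap, with a 2.59-fold higher mean in G35 males (1.37 ± 0.29) and an adjusted p of 0.0764 without slide and 0.0297 with slide. Its second probe was higher by 0.67, with an adjusted p over all probes of 0.0814 with slide. In females it stood at 9.58, 9.76 and 10.21 in female G35 livers, 9.57, 9.65 and 10.06 in female G12 livers and 9.14, 10.11 and 10.57 in female control 1 livers, with control 1 spread over the widest range of the 3. The inulin experiment gave 10.05, 9.34 and 9.76 in female inulin livers against 9.58, 9.04 and 9.41 in female control 2 livers, and 9.22, 9.90 and 9.29 in male inulin livers against 10.03, 9.74 and 10.28 in male control 2 livers. The 12 other p53 targets measured did not share a direction, with 6 higher and 6 lower in G35 males and a median of -0.02. None of these 12 was called in any comparison of a gavage with its control, in either model.

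Arrays with the same replicate number deviated together in the chicory experiment, and with that number as a block instead of slide the same 3 genes were called (adjusted p 0.0425 each). Among the 6 male G35 and control 1 arrays the number and the slide give the same pairs. The block is therefore not a check separate from slide for these calls. Slide as a random block gave each an adjusted p of 0.00811. With slide and number both in the model 0 were called (adjusted p 0.0622, 0.0614 and 0.226 for Irf2bp2, Plk3 and Trp53inp1). With slide, Irf2bp2 was called whichever of the 6 arrays was left out, Trp53inp1 in 2 of 6 such fits and Plk3 in 0 of 6. The Trp53inp1 call was lost without replicate 2 or 3 of either group.

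**Figure D2:**
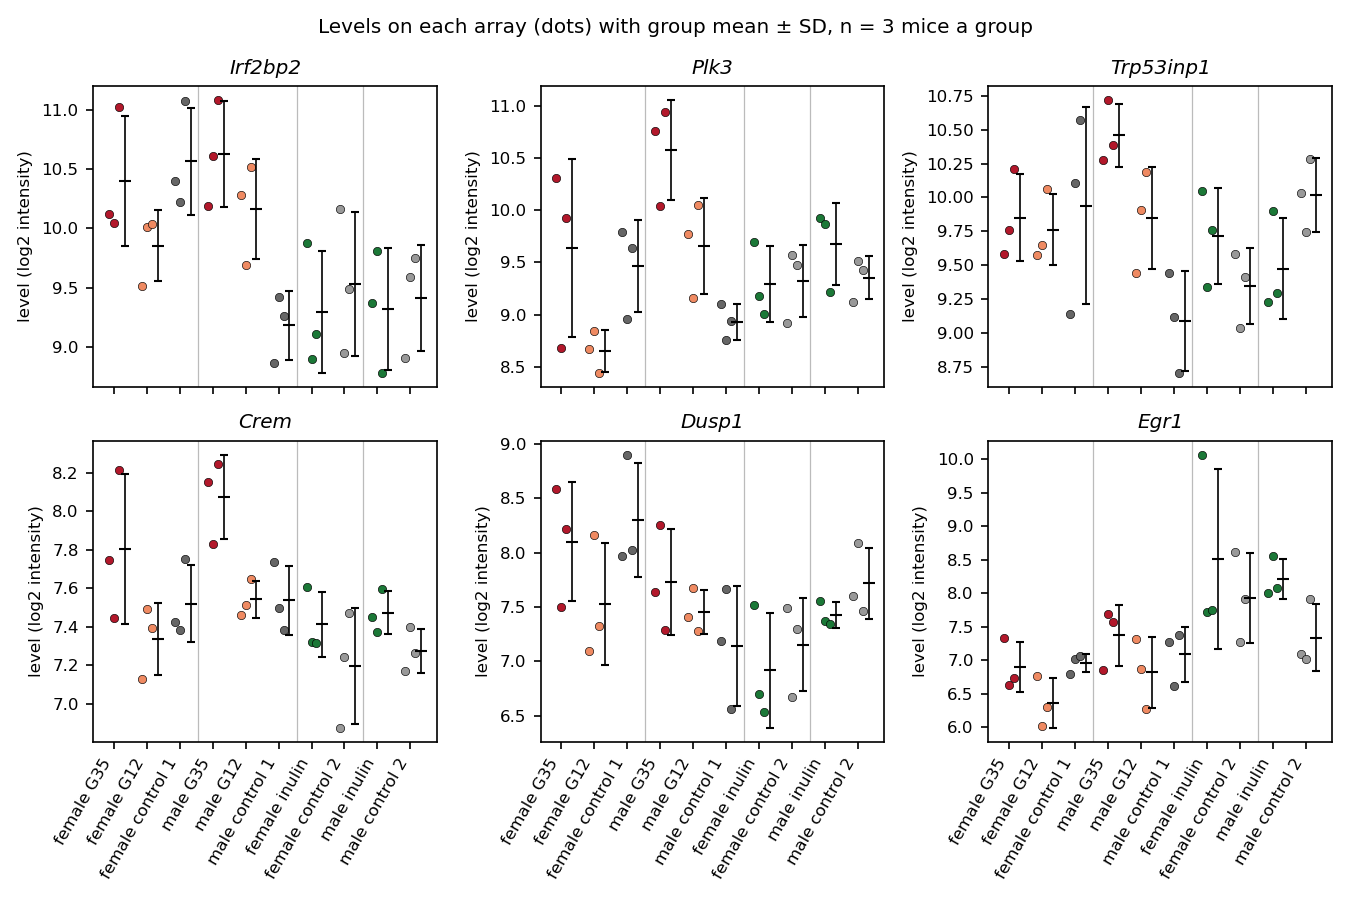
Log2 level of 6 genes on every array (dots, coloured by gavage) with the mean ± SD of each group of 3 mice (bars) in female and male livers of the chicory and inulin experiments. Irf2bp2, Plk3, Trp53inp1 and Crem are highest on average in male G35, and Egr1 reached 10.07 on 1 female inulin array.

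In all, 14 of 41 members had every G35 male array above every control 1 male array, including the 3 above, against 6.48% of all genes. The other 11 were Fosl2, Jun, Jund, Maff, Crem, Gadd45b, Gadd45g, Klf3, Klf4, Klf12 and Klf13. Only Dusp22 and Dusp23 had every G35 array below every control array, against 6.48% of all genes. At an unadjusted p under 0.05, 12 members were higher and 0 lower, against 3.02% and 2.85% of all genes. None of these other members was called in G35 males in either model.

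The AP-1 members, whose proteins pair to bind the AP-1 sequence, were each higher on every G35 array. Jun stood at 9.61, 9.87 and 9.47 in male G35 livers, 10.01, 8.88 and 8.20 in male G12 livers and 8.73, 9.09 and 8.35 in male control 1 livers. The difference was 0.93 ± 0.42 (adjusted p 0.803). Jund, a Jun protein also present in resting cells, stood at 10.72, 10.66 and 11.22 in male G35 livers, 10.89, 10.19 and 10.54 in male G12 livers and 10.14, 10.48 and 10.25 in male control 1 livers, a difference of 0.58 ± 0.24 (adjusted p 0.77). Fosl2, one of the dim genes, stood at 6.77, 6.57 and 6.92 in male G35 livers, 6.75, 6.30 and 6.66 in male G12 livers and 6.35, 6.30 and 6.16 in male control 1 livers (0.48 ± 0.15, adjusted p 0.451). In females the same genes overlapped between G35 and control 1. Jun was 9.92, 7.86 and 9.00 in female G35 livers, 8.29, 8.76 and 8.42 in female G12 livers and 9.35, 9.11 and 8.03 in female control 1 livers, the G35 arrays being the most spread. Jund was 9.90, 10.20 and 10.92 in female G35 livers, 10.03, 10.78 and 10.35 in female G12 livers and 10.52, 10.55 and 10.34 in female control 1 livers. Fosl2 was 6.71, 6.49 and 6.76 in female G35 livers, 6.37, 6.68 and 6.20 in female G12 livers and 6.32, 6.41 and 6.72 in female control 1 livers.

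The Egr and Maf members gave a mixed picture. Egr1, the serum- and growth factor-induced zinc finger factor, stood at 6.85, 7.70 and 7.57 in male G35 livers, 7.32, 6.87 and 6.27 in male G12 livers and 7.27, 6.62 and 7.37 in male control 1 livers, so that the G35 and control groups overlapped (0.28 ± 0.45). In females it was 7.32, 6.63 and 6.74 in female G35 livers, 6.76, 6.02 and 6.30 in female G12 livers and 6.80, 7.01 and 7.06 in female control 1 livers, the second G12 value lying in the low patch. Maff, a small Maf factor without an activation domain, stood at 8.52, 9.08 and 8.83 in male G35 livers, 8.56, 8.83 and 8.30 in male G12 livers and 8.50, 7.76 and 7.51 in male control 1 livers. Its G35 males were all above the controls, by 0.89 ± 0.26 (adjusted p 0.366). Female values were 8.39, 7.95 and 8.64 in female G35 livers, 7.79, 7.89 and 8.01 in female G12 livers and 8.62, 8.23 and 7.87 in female control 1 livers, and overlapped. Mafg, also a small Maf factor, was 10.60, 10.67 and 11.17 in male G35 livers, 10.80, 10.90 and 11.04 in male G12 livers and 10.81, 10.70 and 10.66 in male control 1 livers. Its groups overlapped (0.09 ± 0.22, adjusted p 0.995). Mafg in females was 10.64, 10.81 and 10.59 in female G35 livers, 11.03, 10.90 and 10.73 in female G12 livers and 11.02, 10.29 and 10.48 in female control 1 livers. Mafk was higher by 0.07 in G35 males and by 0.06 in G35 females.

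Gadd45g and Gadd45b encode stress-induced proteins that bind and activate the MAP kinase kinase kinase MTK1. Gadd45g stood at 9.57, 9.41 and 9.61 in male G35 livers, 9.54, 8.86 and 9.22 in male G12 livers and 8.19, 8.34 and 8.07 in male control 1 livers. The control males were low and close together, and the difference of 1.33 ± 0.59 had an adjusted p of 0.79. In females it was 12.11, 10.56 and 10.24 in female G35 livers, 9.80, 10.67 and 9.07 in female G12 livers and 10.54, 9.30 and 9.87 in female control 1 livers, with the highest value of the gene, 12.11, in 1 G35 liver. Gadd45b stood at 8.61, 8.32 and 8.44 in male G35 livers, 8.90, 8.70 and 8.41 in male G12 livers and 7.98, 7.97 and 7.11 in male control 1 livers. Both chicory groups lay above the controls, by 0.77 ± 0.33 for G35 and 0.98 ± 0.33 for G12. In females Gadd45b was 8.08, 8.91 and 7.84 in female G35 livers, 8.94, 9.33 and 8.28 in female G12 livers and 9.78, 8.72 and 8.34 in female control 1 livers, lower on average in G35 (difference -0.67, adjusted p 0.615) though the groups overlapped.

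Of the 11 Klf members, 10 were higher and 1 lower in G35 males, with a median of 0.33 and a range of -0.07 to 0.71, and 3 were higher and 8 lower in G35 females, with a median of -0.05. None was called. Klf3, a repressor related to the erythroid Klf1, had the largest difference, with 10.36, 10.46 and 10.72 in male G35 livers, 10.53, 9.82 and 10.35 in male G12 livers and 9.82, 9.67 and 9.91 in male control 1 livers (0.71 ± 0.18, adjusted p 0.221). The groups did not overlap. Klf10, a TGF-beta-induced factor with a daily rhythm in liver, was 9.25, 9.84 and 9.78 in male G35 livers, 8.83, 9.53 and 9.79 in male G12 livers and 9.63, 8.67 and 8.78 in male control 1 livers, and the groups overlapped. In females Klf10 was 9.43, 9.43 and 9.85 in female G35 livers, 9.12, 9.42 and 9.79 in female G12 livers and 9.43, 9.83 and 9.58 in female control 1 livers. Klf6, an injury-induced factor, stood at 8.70, 7.92 and 8.84 in male G35 livers, 8.67, 8.14 and 8.07 in male G12 livers and 8.20, 8.05 and 8.21 in male control 1 livers. Female Klf6 levels were 8.25, 8.05 and 8.96 in female G35 livers, 8.01, 8.10 and 8.61 in female G12 livers and 8.29, 8.10 and 8.17 in female control 1 livers. Neither gene separated the groups.

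Klf9 and Klf15 are both glucocorticoid-induced, and Klf15 controls amino acid breakdown and gluconeogenesis. Klf9 stood at 10.41, 10.62 and 10.17 in male G35 livers, 10.32, 10.13 and 10.20 in male G12 livers and 10.24, 9.91 and 10.11 in male control 1 livers. Klf15 stood at 10.47, 10.87 and 9.96 in male G35 livers, 10.13, 10.39 and 9.85 in male G12 livers and 10.30, 10.13 and 9.63 in male control 1 livers. The differences in G35 males were 0.32 ± 0.22 and 0.41 ± 0.24, with overlapping groups. Klf9 in females was 9.87, 9.97 and 10.03 in female G35 livers, 9.64, 9.17 and 9.89 in female G12 livers and 9.96, 10.14 and 9.85 in female control 1 livers, the second G12 value again lying in the low patch. Klf15 in females was 10.52, 10.34 and 9.68 in female G35 livers, 10.10, 10.15 and 9.97 in female G12 livers and 10.20, 10.48 and 10.18 in female control 1 livers.

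Of the 8 Dusp members, 4 were higher and 4 lower in G35 males, with a median of 0.02. Dusp1, the nuclear MAP kinase phosphatase induced by stress and glucocorticoids, stood at 7.64, 8.25 and 7.29 in male G35 livers, 7.41, 7.67 and 7.28 in male G12 livers and 7.19, 7.67 and 6.56 in male control 1 livers. The difference of 0.59 ± 0.35 (adjusted p 0.952) came with overlapping groups. Dusp6, the cytoplasmic phosphatase of ERK, was 10.26, 10.04 and 10.45 in male G35 livers, 9.93, 10.16 and 10.54 in male G12 livers and 10.30, 9.88 and 10.31 in male control 1 livers, and its groups overlapped as well (0.08 ± 0.19). Dusp16, which acts on JNK and p38, was 9.54, 9.87 and 9.69 in male G35 livers, 9.24, 9.25 and 9.72 in male G12 livers and 9.40, 9.26 and 9.59 in male control 1 livers. Dusp12, an atypical phosphatase, was 8.83, 8.70 and 9.35 in male G35 livers, 8.86, 9.08 and 9.43 in male G12 livers and 9.18, 8.62 and 9.19 in male control 1 livers. Dusp23, a small atypical phosphatase and a dim gene, was 6.32, 6.35 and 6.36 in male G35 livers, 6.78, 6.62 and 6.68 in male G12 livers and 6.40, 6.59 and 6.86 in male control 1 livers. Its G35 arrays were close together and below every control array (-0.27 ± 0.14, adjusted p 0.9).

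Crem, which encodes activators and, from an inner promoter, the repressor ICER of cyclic AMP-responsive genes, stood at 8.15, 7.83 and 8.25 in male G35 livers, 7.46, 7.51 and 7.65 in male G12 livers and 7.73, 7.49 and 7.38 in male control 1 livers. The G35 males lay above both other male groups, by 0.54 ± 0.17 relative to control 1 (adjusted p 0.451 without and 0.0935 with slide). Both Crem probes gave similar differences, 0.54 and 0.53, and the labels do not say which transcripts they read. In females Crem was 7.75, 7.45 and 8.22 in female G35 livers, 7.12, 7.49 and 7.39 in female G12 livers and 7.42, 7.38 and 7.75 in female control 1 livers. One G35 female was higher than all other females.

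The Btg genes encode antiproliferative proteins, and none was called after G35. Btg2, a p53 target, stood at 6.42, 7.06 and 6.61 in male G35 livers, 6.76, 6.28 and 6.43 in male G12 livers and 6.38, 6.07 and 6.56 in male control 1 livers, with overlap. Female Btg2 was 6.91, 6.49 and 7.03 in female G35 livers, 6.33, 6.90 and 6.34 in female G12 livers and 6.42, 6.76 and 7.05 in female control 1 livers. Btg3 stood at 8.83, 8.56 and 8.31 in male G35 livers, 7.77, 8.04 and 8.08 in male G12 livers and 7.88, 8.50 and 8.07 in male control 1 livers (0.42 ± 0.22, adjusted p 0.907). Female Btg3 was 8.09, 7.69 and 7.98 in female G35 livers, 7.58, 8.27 and 8.20 in female G12 livers and 6.82, 7.69 and 7.76 in female control 1 livers, with 0.49 ± 0.22 for G35 (adjusted p 0.562). Btg1c was higher by 0.47 ± 0.17 in G35 females (adjusted p 0.438), and Btg1 lower (difference -0.15) in G35 males. Trp53inp2, which encodes an autophagy scaffold, was 11.99, 12.06 and 11.86 in male G35 livers, 11.93, 11.90 and 12.14 in male G12 livers and 12.02, 12.10 and 12.17 in male control 1 livers. Trp53inp2 in females was 12.28, 12.10 and 12.10 in female G35 livers, 12.02, 11.70 and 12.40 in female G12 livers and 12.14, 11.82 and 11.77 in female control 1 livers, also overlapping.

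In females after G35, 0 members were called in either model, against 0% of all genes without slide and 0.867% with slide. At an unadjusted p under 0.05 limma gave 2 members higher (Btg1c and Btg3) and 2 lower (Klf7 and Gadd45b), against 3.7% and 4.35% of all genes. Direction was near even, with 22 of 41 members higher, a median of 0.02 and 47.2% of all genes higher, and 16 members were higher when arrays were scaled to their 75th percentile. Klf7 was the only member whose G35 females all lay to 1 side of the control females, and 0 members had all of them above, against 5.62% of all genes below and 4.88% above. It was lower (difference -0.28 ± 0.12, adjusted p 0.547). In both sexes at once, 0 members had every G35 array above every control 1 array of their sex and 0 had every one below, against 0.434% and 0.356% of all genes. Averaged over the sexes, only Irf2bp2 was called, and only with slide (0.68 ± 0.14, adjusted p 0.0447), against 0.456% of all genes (0.3% called higher). Without slide its adjusted p was 0.508, and the share of all genes called was 0.0556%. Without slide the differences behind that average were 1.44 in males and -0.17 in females. With slide it was called in 5 of 12 fits that left out 1 array. Its second probe had 0.47 with slide, with a limma adjusted p over all probes of 0.112. For Crem the second, dimmer probe had 0.58 with slide (0.0308 over all probes), and the probe used here 0.46 (0.0622). Without slide, 10 members were higher and 0 lower at an unadjusted p under 0.05, against 3.81% and 4.06% of all genes. Plk3 (0.91 ± 0.23) and Gadd45g (1.20 ± 0.41) had the largest averages, with adjusted p of 0.215 and 0.41 without slide.

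**Figure D3:**
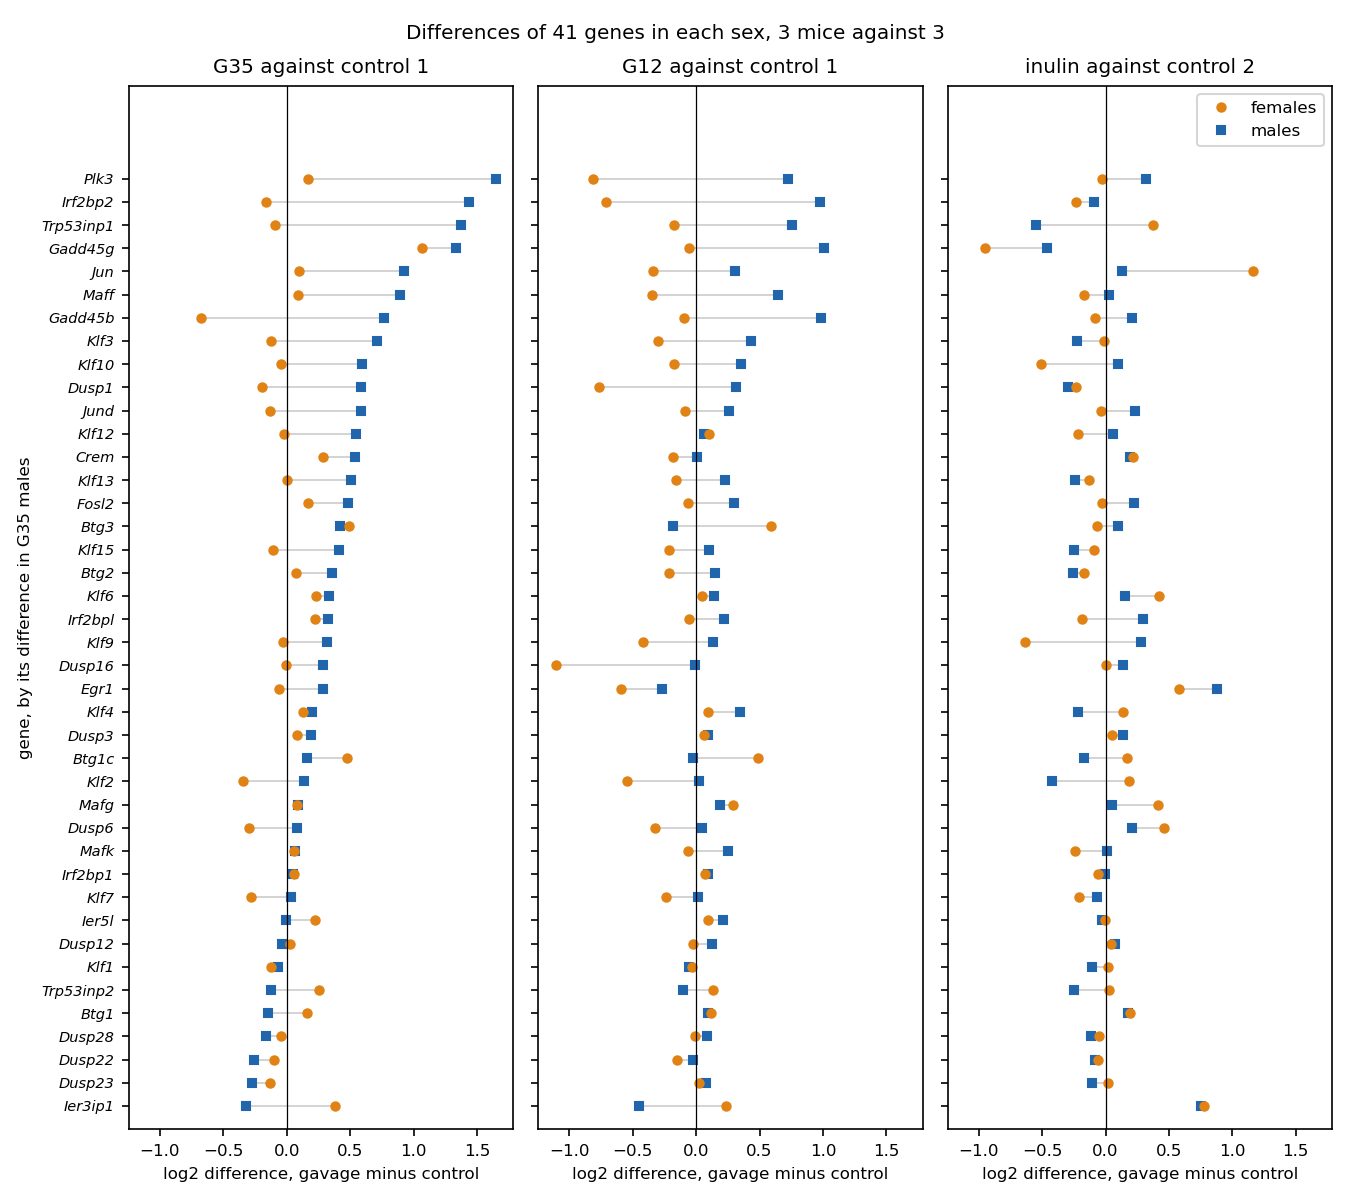
Log2 difference between gavage and its own water control for the 41 genes in females (circles) and males (squares), for G35, G12 and inulin, with genes ordered by their difference in G35 males. For G35 the male points of Plk3, Irf2bp2 and Trp53inp1 lie furthest right, at 1.65, 1.44 and 1.37, and their female points lie at 0.17, -0.17 and -0.09, while for G12 the female points of Plk3 and Irf2bp2 lie left of 0 and the male points right of it.

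After G12, males again had most members above control 1, 33 of 41 with a median of 0.13, against 50.4% of all genes, and 29 to 32 were higher when 1 array was left out. Under median centring 29 of 41 were higher, and under 75th percentile scaling 26 of 41. Both chicory comparisons share the 3 control 1 males. For Irf2bp2, Plk3, Trp53inp1, Gadd45b and Gadd45g every G12 male lay above every control male, 5 members against 5.6% of all genes, and 0 had every G12 male below, against 4.64%. The differences were 0.98 ± 0.35 for Irf2bp2, 0.73 ± 0.33 for Plk3 and 0.76 ± 0.29 for Trp53inp1. Maff was higher by 0.64, with 1 control male within the range of the G12 males. No member was called in G12 males in either model, and 0 of all genes were (0% in both). At an unadjusted p under 0.05, limma gave 6 members higher and 0 lower without slide, against 2.72% and 1.21% of all genes. Averaged over the sexes, 26 of 41 members were higher after G12, and 0 were called in either model, against 0% of all genes without and 0.0333% with slide. Unadjusted p-values under 0.05 were found for 0 members in either direction, against 2.48% and 2.73% of all genes.

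In females G12 went with lower rather than higher values, 28 of 41 members being below control 1, with a median of -0.09 and 50.7% of all genes higher. Every G12 female lay below every control female for 7 members (Klf2, Plk3, Irf2bp2, Klf7, Dusp6, Egr1 and Klf15), against 4.96% of all genes, and above it for Btg1c, against 5.44%. Klf2, a factor of vascular endothelium and lymphocytes, was lower (difference -0.55 ± 0.19, adjusted p 0.301 without slide and 0.0642 with slide). Btg3 was higher by 0.59 ± 0.22 (adjusted p 0.321). Without slide 0 members were called, against 0.0778% of all genes. With slide Dusp1 and Dusp16 were called lower, 2 of 41 members beside 4.55% of all genes, a share near that of all genes. Both shares were counted with the low patch of female G12 replicate 2 left in. With the patch masked 0 members were called.

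Dusp1 was 8.59, 7.50 and 8.22 in female G35 livers, 7.09, 8.16 and 7.33 in female G12 livers and 7.96, 8.90 and 8.03 in female control 1 livers. The groups overlapped, and the difference was -0.77 ± 0.35 without slide and -0.81 ± 0.21 with slide (adjusted p 0.403 and 0.0394). On the 2 slides with an array of each group it ran from -0.87 to -0.74. Its call was lost in all 6 fits with slide that left out 1 array, and when the patch, which holds no Dusp1 probe used here, was masked (adjusted p 0.0547). Dusp16 was 9.25, 9.34 and 9.75 in female G35 livers, 9.18, 6.57 and 9.27 in female G12 livers and 8.97, 9.70 and 9.67 in female control 1 livers. The single low value came from the array of female G12 replicate 2, inside its patch of low signal. In the patch 319 of 850 probes (37.5%) lay more than 1.5 log2 units below the mean of the other females, against 4 of 14655 (0.0273%) elsewhere on that array. With the patch masked the Dusp16 difference was -0.22 without slide and 0.11 with slide (adjusted p 0.791), against -1.11 and -1.51 unmasked. For Egr1 the G12 female difference was -0.43 with the mask and -0.60 unmasked without slide, and -0.10 and -0.55 with slide. For Klf9 it was -0.22 with the mask and -0.42 unmasked without slide, and -0.28 and -0.60 with slide. Dusp12 was 9.28, 9.17 and 9.30 in female G35 livers, 9.35, 9.00 and 9.25 in female G12 livers and 9.16, 8.89 and 9.63 in female control 1 livers. Dusp23 was 6.61, 6.95 and 6.67 in female G35 livers, 7.06, 6.85 and 6.79 in female G12 livers and 7.21, 6.69 and 6.72 in female control 1 livers. Both overlapped between each chicory group and control 1.

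**Figure D4:**
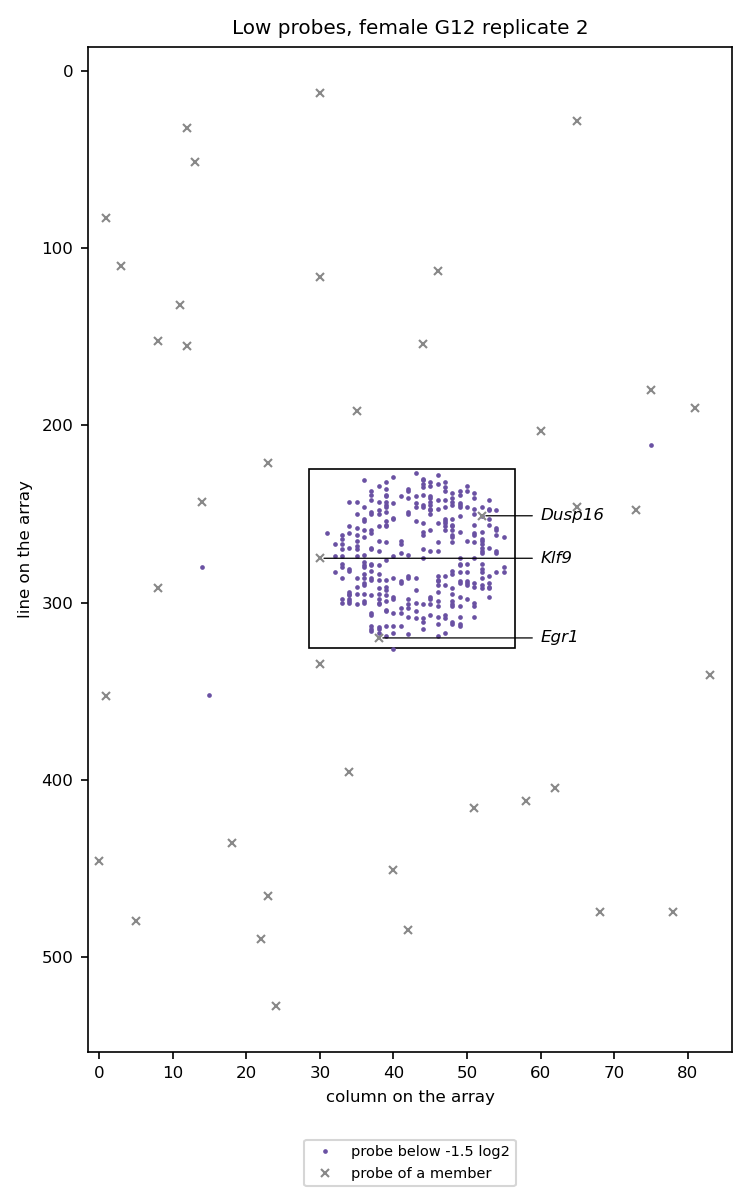
Positions on the array of female G12 replicate 2 of all probes more than 1.5 log2 units below the mean of the other females (dots) and of the members' probes (crosses), by line and column of the array. The low probes form a ring inside the boxed patch of 850 probes, where the probes of Dusp16, Klf9 and Egr1 lie.

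The G12 effect differed between the sexes for Irf2bp2 when slide was in the model. Without slide its difference from control 1 was -0.71 in females and 0.98 in males, and the female effect minus the male effect was -1.82 ± 0.28 with slide (adjusted p 0.0174), against 0.7% of all genes called, and -1.68 ± 0.50 without (adjusted p 0.336), against 0.0333%. With the replicate block the adjusted p was 0.128, and with block and slide 0.11. Leaving out 1 array kept the call in 10 of 12 fits with slide, and it was lost without male control 1 replicate 1 or replicate 3. Every female G12 array lay below every female control and every male G12 array above every male control, for Irf2bp2 and for Plk3. That held for 69 of all genes (0.767%). Plk3 was -0.81 in females and 0.73 in males, a difference between the sexes of -1.54 ± 0.47 (adjusted p 0.355). Both statements rest on control 1, where Irf2bp2 was higher in females, 10.56 ± 0.45, than in males, 9.19 ± 0.29 (SD, n = 3 each). A second Irf2bp2 probe had smaller G12 differences of the same direction, -0.47 in females and 0.37 in males without slide.

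For G35 the female effect minus the male effect was below 0 for 30 of 41 members, with a median of -0.29, and 47.9% of all genes were above 0. None was called in either model, against 0.0222% of all genes without and 0% with slide. At an unadjusted p under 0.05 limma gave 7 members below and 0 above 0, against 3.17% and 3% of all genes, namely Trp53inp1 (-1.46), Irf2bp2 (-1.61), Klf3 (-0.84), Plk3 (-1.48), Gadd45b (-1.44), Maff (-0.80) and Jund (-0.71). For G12, 33 of 41 members were below 0, with a median of -0.31. For G12 8 members were below and 2 above 0 at an unadjusted p under 0.05, against 5.36% and 3.92% of all genes. The inulin effect gave 22 members above and 19 below 0, with 0 called in either model and 0% of all genes. The male arrays carry the position on the slide described above in both comparisons.

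G35 was also set against G12, which leaves the water controls out. Averaged over the sexes, 28 of 41 members were higher in G35, with a median of 0.18 and 45.1% of all genes higher. Crem was called with slide, 0.58 ± 0.10 (adjusted p 0.0351), beside 0.1% of all genes, and not without it (0.50 ± 0.12, adjusted p 0.236). It was higher in G35 on all 4 slide and sex sets with arrays of both, by 0.47 to 0.82. In males every G35 array (the lowest 7.83) lay above every G12 array (the highest 7.65). With slide as a random block the adjusted p was 0.022, with the replicate block 0.489, and the call held in 3 of 12 fits with slide that left out 1 array. Plk3 was higher by 0.95 ± 0.23 (adjusted p 0.236 without and 0.209 with slide), also on 4 of 4 sets. In males Btg3, Crem and Trp53inp1 were higher and Btg1, Dusp22 and Dusp23 lower on every G35 array than on every G12 array, against 3.94% and 5% of all genes. In females Ier3ip1, Ier5l and Irf2bp2 were higher in that way and 0 lower, against 2.33% and 3.15%. Within males or within females 0 members were called in either model. In males that stood beside 0.0445% of all genes without and 0.0333% with slide, and in females beside 0% in both.

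**Figure D5:**
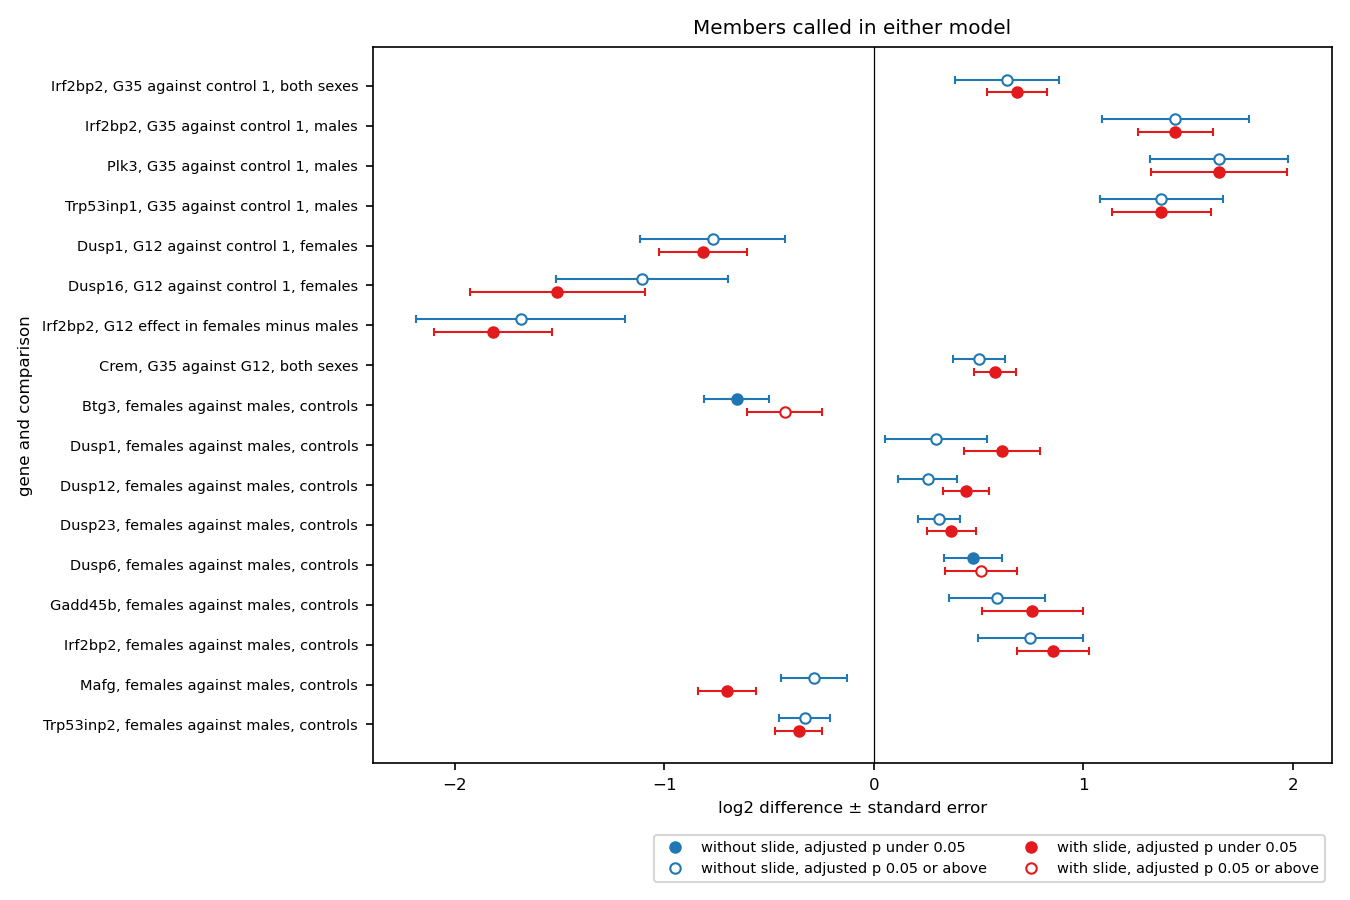
Log2 difference ± standard error from limma for each member and comparison called with (red) or without (blue) slide in the model, with filled points for an adjusted p under 0.05. The 3 differences in G35 males are the same in both models, with a smaller error for Irf2bp2 with slide (0.18 against 0.35), and Dusp16 in G12 females includes the array with the low patch.

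After inulin 0 members were called in either model, averaged or within a sex, beside at most 0.0445% of all genes. Averaged over the sexes 17 of 41 members were above control 2, with a median of -0.04, and 45.3% of all genes were above it. Scaling each array to its 75th percentile raised the median of all genes by 0.13 and put 29 of 41 members above control 2, so no direction is given for the group. At an unadjusted p under 0.05, 4 members were higher (Ier3ip1, Dusp6, Egr1 and Jun) and 0 lower, against 0.956% and 1.02% of all genes.

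Egr1 was 10.07, 7.72 and 7.75 in female inulin livers against 8.61, 7.27 and 7.91 in female control 2 livers, and 8.01, 8.56 and 8.08 in male inulin livers against 7.09, 7.01 and 7.91 in male control 2 livers. In males every inulin array was above every control, 1 such member against 4.75% of all genes. In females 1 inulin liver, at 10.07, stood far above the rest. The averaged difference was 0.73 ± 0.32 without slide (adjusted p 1) and 1.04 ± 0.25 with slide (adjusted p 0.262).

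Jun was 9.47, 9.04 and 9.08 in female inulin livers against 7.56, 8.50 and 8.04 in female control 2 livers, and 8.99, 9.08 and 9.05 in male inulin livers against 9.28, 8.64 and 8.82 in male control 2 livers. The female arrays did not overlap (1.17 ± 0.42), and the male arrays did (0.13 ± 0.42). Dusp6 was 10.81, 11.00 and 10.85 in female inulin livers against 10.67, 10.47 and 10.12 in female control 2 livers, and 9.79, 10.31 and 9.80 in male inulin livers against 9.86, 9.75 and 9.67 in male control 2 livers. Its female inulin arrays were above its controls (0.46 ± 0.19), and 3 members in all were so in females, against 3.19% of all genes, while 2 (Klf7 and Mafk) had every inulin female below every control female, against 4.95%. The third was Ier3ip1, with 10.34, 10.70 and 10.62 in female inulin livers against 8.86, 10.17 and 10.30 in female control 2 livers. In males it was 9.93, 9.85 and 10.14 in male inulin livers against 10.32, 8.53 and 8.82 in male control 2 livers, and 2 control males were low. Its averaged difference was 0.76 ± 0.26 (adjusted p 1). A second, dimmer probe of Ier3ip1 did not show this, with 0.04 averaged, 0.10 in males and -0.03 in females, all without slide.

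Klf9 was 10.13, 9.18 and 9.80 in female inulin livers against 10.71, 9.72 and 10.57 in female control 2 livers, and 10.75, 11.07 and 10.90 in male inulin livers against 10.59, 10.50 and 10.78 in male control 2 livers. Its female difference of -0.63 ± 0.22 had an adjusted p of 1, and the groups overlapped. Klf2 was lower in inulin males (difference -0.42 ± 0.19), without overlap, as was Klf4, 2 members against 3.19% of all genes. Gadd45g was 9.68, 7.91 and 9.41 in female inulin livers against 10.00, 9.58 and 10.27 in female control 2 livers, and 10.15, 9.22 and 8.20 in male inulin livers against 8.23, 11.02 and 9.71 in male control 2 livers, with wide spread in both sexes. Trp53inp1 was lower (difference -0.55) in males and higher by 0.37 in females (adjusted p 1 and 1). None of these differences was called.

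The remaining named genes did not separate inulin from control 2 in both sexes. Fosl2 was 6.11, 6.07 and 6.27 in female inulin livers against 6.25, 6.06 and 6.23 in female control 2 livers, and 6.29, 6.63 and 6.20 in male inulin livers against 6.05, 6.32 and 6.06 in male control 2 livers. Jund was 9.69, 9.87 and 9.75 in female inulin livers against 10.24, 9.77 and 9.41 in female control 2 livers, and 10.79, 10.28 and 10.34 in male inulin livers against 10.14, 10.48 and 10.08 in male control 2 livers. Maff was 7.84, 7.18 and 6.85 in female inulin livers against 7.38, 7.58 and 7.40 in female control 2 livers, and 7.50, 8.08 and 8.04 in male inulin livers against 8.16, 7.56 and 7.82 in male control 2 livers. All 3 overlapped in each sex. Dusp1 was 7.52, 6.70 and 6.53 in female inulin livers against 7.49, 6.67 and 7.30 in female control 2 livers, and 7.56, 7.37 and 7.34 in male inulin livers against 7.60, 8.08 and 7.47 in male control 2 livers. Dusp16 was 9.28, 9.39 and 9.10 in female inulin livers against 9.39, 9.29 and 9.08 in female control 2 livers, and 9.20, 9.73 and 9.76 in male inulin livers against 9.76, 9.25 and 9.28 in male control 2 livers. The low Dusp16 value of the chicory experiment thus had no counterpart here.

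Klf6 was 7.75, 8.19 and 7.75 in female inulin livers against 7.95, 7.43 and 7.04 in female control 2 livers, and 7.65, 8.12 and 7.09 in male inulin livers against 7.27, 7.50 and 7.62 in male control 2 livers. Klf10 was 9.12, 8.11 and 8.82 in female inulin livers against 8.78, 8.79 and 10.00 in female control 2 livers, and 8.17, 8.56 and 9.73 in male inulin livers against 9.29, 8.50 and 8.39 in male control 2 livers. Klf15 was 10.75, 10.20 and 10.61 in female inulin livers against 10.67, 10.27 and 10.90 in female control 2 livers, and 10.57, 10.72 and 10.75 in male inulin livers against 10.72, 10.81 and 11.26 in male control 2 livers. For these 3 Klf genes the groups overlapped in both sexes. Btg2 was 7.21, 6.52 and 6.75 in female inulin livers against 6.61, 7.19 and 7.19 in female control 2 livers, and 6.25, 6.69 and 6.64 in male inulin livers against 6.60, 7.11 and 6.64 in male control 2 livers. Gadd45b was 8.07, 7.81 and 8.24 in female inulin livers against 8.60, 7.68 and 8.08 in female control 2 livers, and 8.31, 8.48 and 8.48 in male inulin livers against 8.47, 7.96 and 8.21 in male control 2 livers. Crem was 7.61, 7.32 and 7.31 in female inulin livers against 6.87, 7.24 and 7.47 in female control 2 livers, and 7.45, 7.37 and 7.59 in male inulin livers against 7.17, 7.40 and 7.26 in male control 2 livers, higher by 0.22 and 0.20 on average. These 3 also overlapped in each sex.

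Females were also set against males among the 12 water controls, 6 of each sex. Of these arrays 6 of 6 from males and 3 of 6 from females lay at position 4 of their slide, so sex and position are partly confounded. On every slide that held controls of both sexes, the male control lay at position 4 and the female control did not. Between controls on the same slide, sex and position thus cannot be told apart. Without slide 2 of 41 members (4.88%) were called, beside 5.46% of all genes, so the share of members was near that of all genes. Btg3 was 6.82, 7.69 and 7.76 in female control 1 and 7.80, 7.21 and 7.61 in female control 2, against 7.88, 8.50 and 8.07 in male control 1 and 8.11, 8.07 and 8.19 in male control 2. Every female lay below every male, with a difference of -0.66 ± 0.16 (adjusted p 0.0124), 1 such member against 1.17% of all genes. With slide the difference was -0.43 ± 0.18 (adjusted p 0.129). Dusp6 was 10.64, 10.45 and 10.25 and 10.67, 10.47 and 10.12 in the same female groups, against 10.30, 9.88 and 10.31 and 9.86, 9.75 and 9.67 in the male groups. It was higher in females by 0.47 ± 0.14 (adjusted p 0.0421 without and 0.0614 with slide), with overlap, and was called in 3 of 12 fits that left out 1 array.

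With slide, 7 of 41 members (17.1%) were called, beside 12.6% of all genes. Higher in females were Irf2bp2 (0.85 ± 0.17, adjusted p 0.00437), Gadd45b (0.76 ± 0.24, 0.0492), Dusp1 (0.61 ± 0.18, 0.0365), Dusp12 (0.44 ± 0.11, 0.0163) and Dusp23 (0.37 ± 0.12, 0.0469). Lower in females were Mafg (-0.70 ± 0.14, 0.00357) and Trp53inp2 (-0.36 ± 0.11, 0.0478). With slide, Mafg was called in 11 of 11 fits that left out 1 array, Irf2bp2 in 10 of 11, Dusp12 in 9 of 11, Dusp1 in 6 of 11, Gadd45b and Dusp23 in 2 of 11 and Trp53inp2 in 0 of 11. The fit without female control 2 replicate 1 could not be made. In the second experiment only that female array shares a slide with males. It holds the Mafg value of 9.88 and the Dusp12 value of 10.11 given below, so dependence on it was not tested. Irf2bp2 lost its call without male control 2 replicate 3, and Dusp12 without that array or female control 1 replicate 3. Without slide none of these 7 was called, and each difference was smaller. It was 0.75 for Irf2bp2, 0.59 for Gadd45b, 0.30 for Dusp1, 0.26 for Dusp12 and 0.31 for Dusp23. For Mafg it was -0.29 (adjusted p 0.323) and for Trp53inp2 -0.33. Mafg in the controls of the second experiment was 9.88, 11.13 and 10.89 in females, against 11.16, 11.04 and 11.02 in males. Trp53inp2 there was 12.02, 11.74 and 12.13 in females, against 12.67, 12.32 and 12.32 in males. Dusp12 in the same livers was 10.11, 9.53 and 9.59 in females, against 9.28, 9.55 and 9.54 in males. Dusp23 was 7.06, 6.93 and 6.74 in females, against 6.54, 6.55 and 6.52 in males. In control 1 all 4 of these genes overlapped between the sexes. In inulin livers Mafg was 10.93, 10.89 and 11.32 in females, against 11.18, 11.04 and 11.15 in males. Trp53inp2 was 12.27, 11.66 and 12.05 in inulin females, against 11.96, 12.20 and 12.42 in inulin males. Dusp12 was 9.81, 9.67 and 9.88 in inulin females, against 9.49, 9.52 and 9.59 in inulin males. Dusp23 was 6.80, 7.07 and 6.92 in inulin females, against 6.49, 6.22 and 6.59 in inulin males. For Btg3 the inulin livers were at 7.31, 7.62 and 7.49 in females, against 8.32, 8.17 and 8.17 in males.

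Lists of related genes were read beside the members. Of 26 other immediate early or early response genes, 23 were higher and 3 lower in G35 males, with a median of 0.34, and 0 were called without slide. With slide Cebpb, a liver factor of the acute phase and of gluconeogenesis, was called (0.73 ± 0.12, adjusted p 0.0222). Nfkbia, the inhibitor of NF-kappaB (0.84 ± 0.24), Ifrd1 (0.79 ± 0.21) and Zfp36l1, an mRNA decay factor (0.62 ± 0.19), had the lowest p without slide and were not called. In G35 females 18 of the 26 were higher, with a median of 0.19. Of 15 regulators of serum response factor and CREB target genes, 8 were higher in G35 males and 1 was called with slide, Mrtfb, a coactivator of serum response factor (0.81 ± 0.15, adjusted p 0.0327). The 21 MAP kinase cascade genes split 12 higher and 9 lower (median 0.02) and the 9 feedback genes of that pathway 4 and 5 (median -0.03), with 0 called in either model in G35 males. In G12 females the calls with slide of Errfi1, Mapk9 and Crtc1 rested on probes inside the low patch and were lost on masking (adjusted p 0.941, 0.82 and 0.471). Outside it, Cebpb was lower (-0.57 ± 0.14, adjusted p 0.0299 and 0.0424 with the mask) and Map3k1, a kinase of the cascade, higher (0.42 ± 0.11, adjusted p 0.0471 and 0.0659 with the mask).

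Whole liver was measured, so fewer cells of a type and less RNA per cell cannot be told apart. Hepatocyte markers (11 of 12 measured, none dim) summed to 18.16 to 18.59 log2 units in male G35 livers, against 18.22 to 18.53 in male control 1 livers. The 11 macrophage and Kupffer cell markers measured summed to 12.29 to 12.86 in male G35, against 12.29 to 12.34 in male control 1. The 4 neutrophil markers summed to 11.02 to 11.58 in male G35, against 10.81 to 11.14 in male control 1, and 2 of the 4 (Ly6g and Camp) were dim. The 9 endothelial markers summed to 11.95 to 12.02 in male G35, against 11.82 to 12.07 in male control 1, and the 8 stellate and fibroblast markers to 12.70 to 12.99, against 12.48 to 12.77. The 4 lymphocyte markers, with Cd3e and Gzma dim, summed to 9.20 to 12.74 in male G35, against 10.73 to 12.34 in male control 1, and 0 cholangiocyte markers were measured. Their part in the results above was not tested. The 2 pancreatic acinar markers measured summed to 11.93 to 15.99 in male G12 livers, against 9.19 to 9.27 in male control 1, and to 9.82 to 14.95 in female G12 livers, against 9.17 to 12.33 in female control 1. In G35 livers they summed to 9.49 to 15.22 in females and 8.92 to 9.58 in males, beside the same controls, and their part in the G35 and G12 values was not tested. The 5 erythroid markers summed to 14.61 to 15.15 in female inulin livers, against 15.57 to 16.08 in female control 2, and their part in the inulin values was not tested either.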

How the data were processed

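The deposited table held raw fluorescence intensity per probe for 30 one-colour Agilent arrays, whole numbers from 39 to 65535. The submitters' processing notes name Agilent Feature Extraction. Its version and the signal column are not given in the sources used here. Of 15505 probes, 12544 had 1 gene symbol in the platform annotation and 2961 had none.

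Because the deposited intensity values were raw, they were background-corrected with normexp (offset 50), quantile-normalized between arrays and put on the log2 scale, with limma 3.58.1 in R 4.3.3. For each gene the probe with the highest mean was used, which gave 8996 genes. All 10 groups were fitted together, once with groups alone (20 residual degrees of freedom) and once with slide as a term (12). Differences are limma estimates with standard errors, and p-values were adjusted by Benjamini-Hochberg over all genes. The members and the gene lists were chosen with earlier results of these data known. Members were named with values for every array when either model called them in any comparison, or when they were on a list of textbook immediate early genes. The others were named by the lowest p in a comparison or by groups that did not overlap.

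In the chicory experiment, arrays that share a replicate number deviated together (correlations of residuals 0.121 to 0.706 over 18 pairs, against -0.526 to 0.39 over 36 pairs of unlike number), so the number was also used as a block. In the inulin experiment they did not (-0.525 to 0.0811 over 6 pairs). The numbers partly follow the slides, and among the male G35 and control 1 arrays they follow them fully. The mask for the patch of low signal was chosen after seeing the data. Tested on simulated data for G35 against control 1 males (8996 genes), the models recovered 82% (groups alone) and 91% (with slide) of 100 genes changed by 1 log2 unit, and called 0 and 5 unchanged genes. Another 100 genes were changed by 2 log2 units, and 177 and 192 genes were called in all, against 1 and 32 in the measured data. More changed genes ease the Benjamini-Hochberg threshold, so the recovered shares do not carry over to the measured data. The number of arrays limits the precision. Figures were drawn with matplotlib 3.10.9.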

Additional observations from a re-analysis of the deposited data

Results flagged for a closer look

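The G12 effect on Irf2bp2 in females minus that in males was -1.82 on the log2 scale with slide in the model, and limma's test of that difference gave an adjusted p of 0.0174. With the replicate block added to slide the adjusted p was 0.11, and with the block and no slide 0.128, so the call was lost in both. Without slide the same difference was -1.68 (adjusted p 0.336). A second Irf2bp2 probe had smaller G12 differences, -0.47 in females and 0.37 in males (unadjusted limma p 0.154 and 0.254 without slide). For the probe used here, every female G12 array lay below every female control 1 array, and every male G12 array lay above every male control 1 array. Plk3 showed the same arrangement of arrays, with a difference between the sexes of -1.54 (adjusted p 0.355 without slide). Of all 8996 genes, 69 (0.767%) had every array of each sex on opposite sides in this way. The male gavage and control arrays also differed in their position on the slide, and position and gavage cannot be told apart in males.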

How the results depend on the processing

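The counts of members called depended on slide, and each comparison below is named with the count it gave. The directions in G35 males and in G12 females held under each scaling tried. Without slide 0 members were called in each gavage comparison, while slide as a term gave 1 for G35 averaged over the sexes, 3 for G35 males, 2 for G12 females, 1 for the G12 difference between the sexes, 1 for G35 against G12 averaged, and 7 (against 2) for females against males. Slide as a random block gave 3 for G35 males, 1 for the G12 difference between the sexes, 1 for G35 against G12 averaged and 6 for females against males. The replicate block gave 3 for G35 males. In the females against males comparison the control arrays alone gave 0, median centring 1 and scaling to the 75th percentile 1. With slide, adding the replicate block gave 0 for G35 averaged, G35 males, G12 females, the G12 difference between the sexes and G35 against G12 averaged. With slide, 75th percentile scaling gave 0 for G35 averaged, G12 females and G35 against G12 averaged, 5 for inulin averaged and 4 for inulin females, beside 19% and 12.4% of all genes. Median centring gave 0 for G12 females and G35 against G12 averaged, 1 for inulin averaged (beside 8.18% of all genes) and 4 for females against males, and cyclic loess 4 for the last. Moderation with trend and robust options gave 1 for G12 females and 2 for the G12 difference between the sexes, which leaving out dim genes and masking the patch also raised to 2, while the mask gave 0 for G12 females. With slide, Dusp16 in G12 females was 0.11 both with the patch masked and without female G12 replicate 2, whose probe lies in the patch, and leaving out 1 array gave -3.07 to 0.11. Leaving out 1 array with slide gave 1 to 3 for G35 males, 0 to 7 for G35 averaged, 0 to 3 for G35 females, 0 to 2 for the G35 difference between the sexes, 0 to 2 for G12 averaged, 0 to 2 for G12 females, 0 to 4 for the G12 difference between the sexes, 0 to 3 for G35 against G12 averaged, 0 to 1 for G35 against G12 females, 0 to 1 for inulin averaged, 0 to 1 for inulin males and 1 to 7 for females against males. Without slide it gave 0 to 1 for G35 averaged and for G35 against G12 averaged, and 1 to 3 for females against males. Counts over all genes with slide moved from 32 to between 0 and 42 for G35 males, and from 409 to between 2 and 584 for G12 females. When 1 array was left out they ran from 3 to 462 for G35 averaged, 2 to 404 for G35 females, 0 to 372 for the G35 difference between the sexes, 0 to 510 for G12 averaged, 0 to 466 for the G12 difference between the sexes and 478 to 1361 for females against males. The counts of 7 for G35 averaged, 3 for G35 females and 4 for the G12 difference came without female control 1 replicate 1, beside 5.14%, 4.49% and 4.77% of all genes, and 4 for the last also without female G12 replicate 2, beside 5.18%. Other causes were not tested. The replicate block could not be fitted for females against males. With slide, neither could that comparison without female control 2 replicate 1.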
